A study of Mus musculus with 10 samples.

Results

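The IkB family comprises 6 genes here, in 2 classes. Nfkbia, Nfkbib and Nfkbie are the classical members, and Nfkbid, Nfkbiz and Bcl3 are the atypical ones. Binding of p65 (RelA), a subunit of NF-kB, was mapped at them in mouse T cells with ChIP-seq, the sequencing of DNA that an antibody against the protein brings down. An entry of a peak list was given to a member when its summit, the base of strongest signal, lay inside the gene. A summit within 50 kb counted as well when the member was the nearest of 21887 protein-coding genes. This gave 63 of the 26132 entries in 4 lists.

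NF-kB dimers rest in the cytoplasm bound to classical IkB proteins, which are phosphorylated and destroyed after stimulation, so that the dimers enter the nucleus. The genes of several IkB proteins are themselves NF-kB targets, and newly made IkBα (from Nfkbia) removes NF-kB from DNA in a feedback loop. Atypical IkB proteins act inside the nucleus instead, mostly with p50 or p52 homodimers, where they raise or lower transcription of selected genes.

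T cells came from spleens and lymph nodes of C57BL/6 mice and were regulatory T cells (Treg), which restrain immune responses, or conventional T cells (Tconv). The 4 groups were stimulated Treg, unstimulated Treg, stimulated Tconv and unstimulated Tconv, with 2 libraries each, and 2 further libraries held input chromatin mixed from both cell types, with and without stimulation. Stimulation lasted 3 h, with plate-bound antibody against CD3, through which the T cell receptor signals, and dissolved antibody against CD28, a co-stimulatory receptor. IL-2, a T cell growth factor, was added at 10 ng/ml for Treg and at 2 ng/ml for Tconv. Cell type and IL-2 concentration therefore cannot be told apart in the stimulated samples. How the unstimulated cells were kept, with or without IL-2, is stated nowhere in the sources used here. Stimulation therefore cannot be told apart from any difference in IL-2 or culture between stimulated and unstimulated cells. The labelled cell types were not checked against expressed markers, since the files hold p65 binding alone.

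There was 1 list per group, which the authors made by pooling its libraries. Neither a replicate spread nor a test can therefore be given, and library depth is unknown. The Treg lists held 13078 entries with stimulation and 3442 without, and the Tconv lists 6480 and 3132. Their weakest entries had a −log10 p of 26.6, 15.1, 38.1 and 13.3 in that order of lists. An entry missing from a list is therefore not shown to be unbound, and a list does not tell apart binding in more cells from stronger binding per cell. Fold enrichment below is the authors' value for each summit over its local background. It ranks entries within a list, and folds from different lists are set side by side without a ratio between them.

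The sequences around kappaB matches are shown first, because p65 binding at promoters is where the family members can be read base by base. The kappaB consensus used was GGG, a purine, any 2 bases, 2 pyrimidines and CC, the usual recognition sequence of NF-kB, and was searched on both strands. Promoter windows ran from 250 bases before to 50 bases after an annotated gene start (RefSeq, build GRCm38.p6, equal to mm10 in coordinates). The table held windows for 5 of the 6 members, and Nfkbiz was the member without one. Capitals mark the consensus match, and each sequence is written 5′ to 3′ on the strand of the named gene.
Nfkbia, minus strand, chr12:55492632-55492711: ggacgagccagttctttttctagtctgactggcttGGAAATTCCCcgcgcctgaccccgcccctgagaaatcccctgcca
Nfkbie, plus strand, chr17:45555559-45555638: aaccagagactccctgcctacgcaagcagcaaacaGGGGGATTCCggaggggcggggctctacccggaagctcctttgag
Nfkbid, second start, plus strand, chr7:30422156-30422269: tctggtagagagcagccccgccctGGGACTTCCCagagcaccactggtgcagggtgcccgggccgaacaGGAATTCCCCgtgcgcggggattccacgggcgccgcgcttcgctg
Bcl3, minus strand, chr7:19822709-19822788: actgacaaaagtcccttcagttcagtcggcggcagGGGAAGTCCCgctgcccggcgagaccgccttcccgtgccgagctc
Sirt2, plus strand, inside the neighbouring Nfkbib, chr7:28766502-28766551: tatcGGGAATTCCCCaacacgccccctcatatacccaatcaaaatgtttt

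A match stood in 4 of the 7 windows of the members (57.1%), 1 each at Nfkbia, Nfkbie, Nfkbid and Bcl3, where 8.46% of all 32851 promoter windows held one. Among windows that contained a p65 summit the share was 12.6% in stimulated and 13.6% in unstimulated Treg, and 15.5% in stimulated and 12.7% in unstimulated Tconv. In Nfkbia the match began at −29 relative to the gene start, and the promoter summits lay 84 bp from its centre in stimulated and 10 bp in unstimulated Treg, and 44 bp in stimulated and 24 bp in unstimulated Tconv. In Nfkbie it began at −106, with summits at 28, 30, 18 and 6 bp from it in the same order of lists. Each of these classical promoters thus had a summit within 30 bp of a match in both unstimulated lists.

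Nfkbid held 2 matches, at −226 and −181 from its second start, and the nearer of them was 84, 60, 76 and 90 bp from the summits of stimulated Treg, unstimulated Treg, stimulated Tconv and unstimulated Tconv. A looser consensus (GG, 2 purines, any 2 bases, 2 pyrimidines and CC), which 11.2% of all windows held, also matched there at −76, at 22, 46, 30 and 16 bp from those summits. The distance at Nfkbid therefore depended on the version of the motif. In Bcl3 the match began 2 bases after the annotated start, at 44 bp from the summit in stimulated Treg, 48 bp in unstimulated Treg and 72 bp in stimulated Tconv. The own window of Nfkbib held no match. The window of Sirt2, a deacetylase gene that starts beside it on the other strand, held 2 overlapping matches at −246 and −245, which lie inside Nfkbib. The first of these was 74, 82, 38 and 26 bp from the 4 summits at Nfkbib. The shorter sequence GGGAA was found in a window of all 5 members, but 62.7% of all windows held one. A match describes letters only, and its use by p65 was not tested.

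The strongest Nfkbid summits of 3 lists lay in the window of Nfkbid start number 3, which is printed whole because it held no consensus match and so has no capitals.
Nfkbid, start number 3, plus strand, chr7:30423025-30423324: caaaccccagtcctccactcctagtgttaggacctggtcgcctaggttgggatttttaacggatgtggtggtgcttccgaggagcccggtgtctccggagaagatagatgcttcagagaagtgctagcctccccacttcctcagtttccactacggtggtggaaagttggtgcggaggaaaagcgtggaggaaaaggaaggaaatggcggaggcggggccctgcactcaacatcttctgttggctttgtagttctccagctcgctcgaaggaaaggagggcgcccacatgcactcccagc

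**Figure D1:**
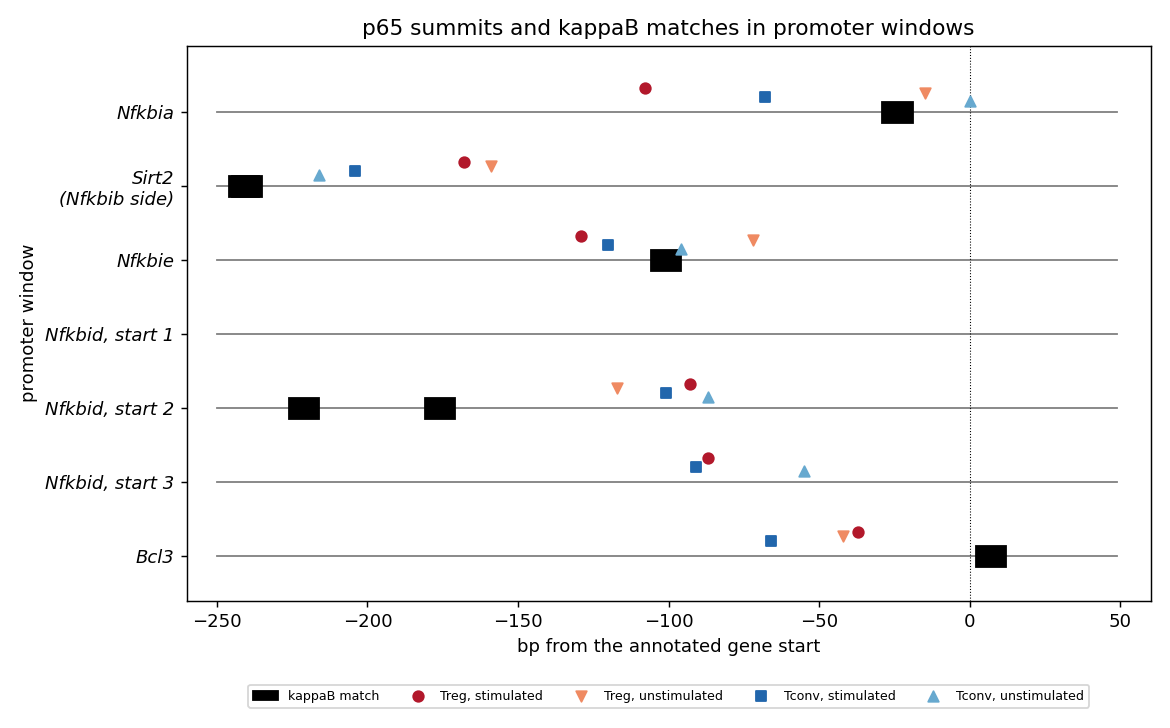
Positions of p65 summits (coloured symbols, 1 per list) and kappaB consensus matches (black boxes) in the promoter windows of 4 IkB family genes and of Sirt2 beside Nfkbib, in bp from the annotated gene start (x axis, dotted line at 0). Symbols are offset vertically for legibility. Summits lie within 30 bp of a match in all 4 lists at Nfkbie and in the 2 unstimulated lists at Nfkbia. Those before the second Nfkbid start lie 60 bp or more from theirs under this consensus. They lie 16 to 46 bp from a match to the looser one, which is not drawn. The window of the third Nfkbid start has summits and no match of either kind.

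All 6 members had an entry in every list. Over all protein-coding genes, 25.8% had one in stimulated and 13.8% in unstimulated Treg, and 16.9% in stimulated and 12.9% in unstimulated Tconv. In all 4 lists, 7.59% had one. The members together held 27 entries in stimulated and 11 in unstimulated Treg, and 17 in stimulated and 8 in unstimulated Tconv. Of these, 13, 6, 7 and 4 belonged to the classical genes and 14, 5, 10 and 4 to the atypical genes, so the classes had similar numbers of entries. They differed in where the strong ones stood, as the strongest summit of each gene shows.

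Nfkbia encodes IkBα, the main feedback inhibitor of NF-kB. Its strongest summit had a fold enrichment of 101.6 in stimulated and 42.3 in unstimulated Treg, and 82.3 in stimulated and 33.2 in unstimulated Tconv. Nfkbib, which encodes IkBβ, reached 25.7, 13.9, 23.9 and 12.9 in the same order of lists. For Nfkbie, which encodes IkBε, the values were 18.6, 14.8, 18.6 and 9.97. Every classical gene thus had a summit above the list median in all 4 lists, the medians being 11.2, 8.13, 12.6 and 8.31.

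Nfkbid, which encodes IkBNS, a nuclear protein needed for normal Treg development in mice, reached 85.3 in stimulated and 10.6 in unstimulated Treg, and 69.8 in stimulated and 6.00 in unstimulated Tconv. The summits of Nfkbiz, the gene of IkBζ, peaked at 47.6, 6.08, 34.9 and 5.03 in that order. Bcl3, whose product Bcl-3 binds p50 and p52 homodimers, had 20.1, 7.30, 15.4 and 4.68. The atypical genes exceeded the list median in both stimulated lists, whereas of their 6 values in the unstimulated lists only that of Nfkbid in unstimulated Treg did.

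The order of the genes therefore differed between stimulated and unstimulated lists. By fold, Nfkbia stood first in both stimulated lists, followed by Nfkbid, Nfkbiz and Nfkbib. In unstimulated Treg the order was Nfkbia, Nfkbie, Nfkbib, Nfkbid, Bcl3 and Nfkbiz, and in unstimulated Tconv it was Nfkbia, Nfkbib, Nfkbie, Nfkbid, Nfkbiz and Bcl3. Each of the 3 classical genes was set against each of the 3 atypical ones within a list. The classical gene was the higher in 4 of 9 pairs in stimulated Treg, 9 of 9 in unstimulated Treg, 5 of 9 in stimulated Tconv and 9 of 9 in unstimulated Tconv. The lowest classical value exceeded the highest atypical one in unstimulated Treg (13.9 against 10.6) and in unstimulated Tconv (9.97 against 6.00), and the classes overlapped in both stimulated lists. With no replicate lists, these orders carry no error estimate, and neighbours such as Nfkbie and Nfkbib in unstimulated Treg, at 14.8 and 13.9, cannot be told apart. When summits were ranked by −log10 p in place of fold, the count in stimulated Treg was 2 of 9. Nfkbid (1041) then stood above Nfkbia (1022), and Bcl3 (229) above Nfkbib (168). In stimulated Tconv that ranking gave 4 of 9, with Nfkbia (772) still above Nfkbid (708).

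**Figure D2:**
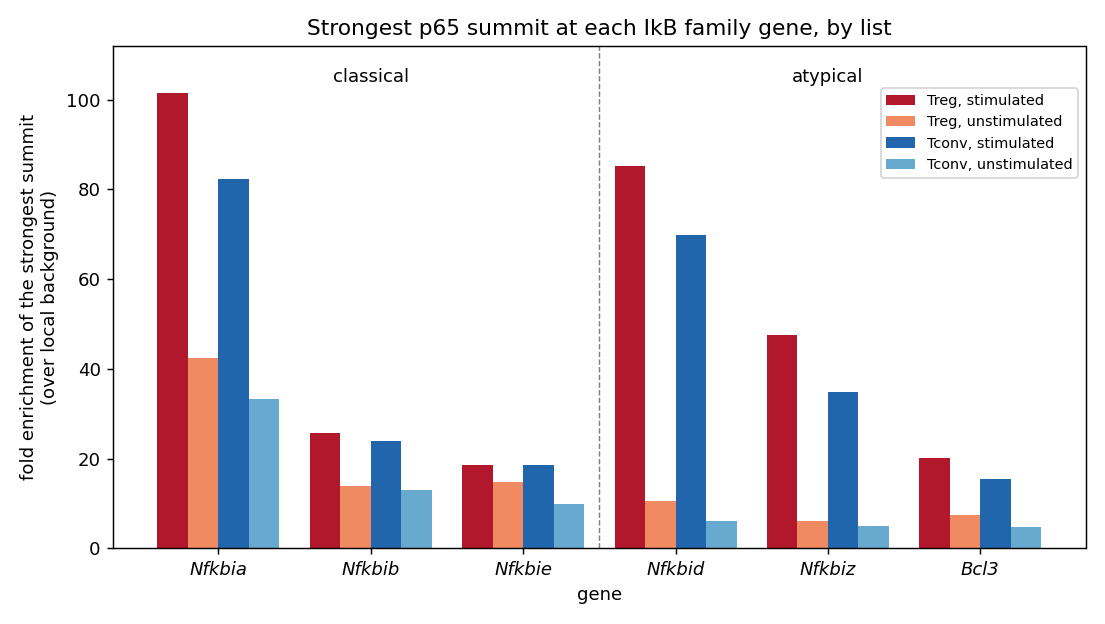
Fold enrichment over local background of the strongest p65 summit (y axis) at each IkB family gene (x axis), 1 bar per list, with no error bars because each group has 1 pooled list. Nfkbid, Nfkbiz and Bcl3 stay at or below 10.6 in the unstimulated lists, while the classical genes lie between 9.97 and 42.3 there.

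Ranks by fold within each list give the same picture against other genes. Among the 5645 genes with an entry in stimulated Treg, Nfkbia ranked 1, Nfkbid 16 and Nfkbiz 199, ahead of Nfkbib at 867, Bcl3 at 1303 and Nfkbie at 1471. Among the 3020 genes of the unstimulated Treg list, Nfkbia ranked 50, Nfkbie 693 and Nfkbib 758, ahead of Nfkbid at 1175, Bcl3 at 1949 and Nfkbiz at 2459. Nfkbia thus led its own class in every list, and the atypical genes filled the last 3 places of the family in unstimulated Treg.
Stimulated Tconv had 3703 genes with an entry, among which Nfkbia ranked 1, Nfkbid 3, Nfkbiz 168, Nfkbib 502, Nfkbie 936 and Bcl3 1400. Unstimulated Tconv had 2819, with Nfkbia at 119, Nfkbib at 841, Nfkbie at 1204, Nfkbid at 2257, Nfkbiz at 2738 and Bcl3 at 2789. Nfkbiz and Bcl3 were therefore close to the end of that list.

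Because the lists end at different strengths, entries were also counted at a common −log10 p of 38.1. Over whole lists, 73.8% of stimulated Treg entries, 44.2% of unstimulated Treg entries, 100% of stimulated Tconv entries, whose weakest one sets the cut-off, and 41.9% of unstimulated Tconv entries reached it. Stimulated Treg kept 12 of 13 classical and 14 of 14 atypical entries, and stimulated Tconv kept all 7 and 10. Unstimulated Treg kept 4 of 6 classical entries, spread over all 3 classical genes, and 1 of 5 atypical entries, at Nfkbid. Unstimulated Tconv kept 4 of 4 classical entries, again over all 3 genes, and 0 of 4 atypical ones. The family as a whole, with 5 of 11 and 4 of 8 entries kept, was close to the shares of those 2 lists, and the kept entries were mostly classical.

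When the 63 summits were joined across lists at gaps of up to 250 bp, they formed 27 sites, of which 13 were classical and 14 atypical. Each site had a summit in stimulated Treg, the longest list. Of all sites of the series, 43.8% had one there alone and another 43.1% had one in both stimulated lists. All 4 lists shared 6 of the sites (4 classical, 2 atypical), where 11.6% of the 14188 sites of the series were shared that widely. Stimulated Treg alone held 10 (6 classical, 4 atypical), where 43.8% of all sites were of that kind. The stimulated lists shared 17 sites, of which 7 were classical and 10 atypical, where 43.1% of all sites were shared by them. Neither unstimulated list held a summit at 14 of the sites, 7 of each class, where neither held one at 73.0% of all sites. At the 6 sites of all 4 lists, the summits of a site spread over 51 to 108 bp in the classical genes and 21 to 30 bp in the atypical ones, with a median of 41 bp over such sites of the series.

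**Figure D3:**
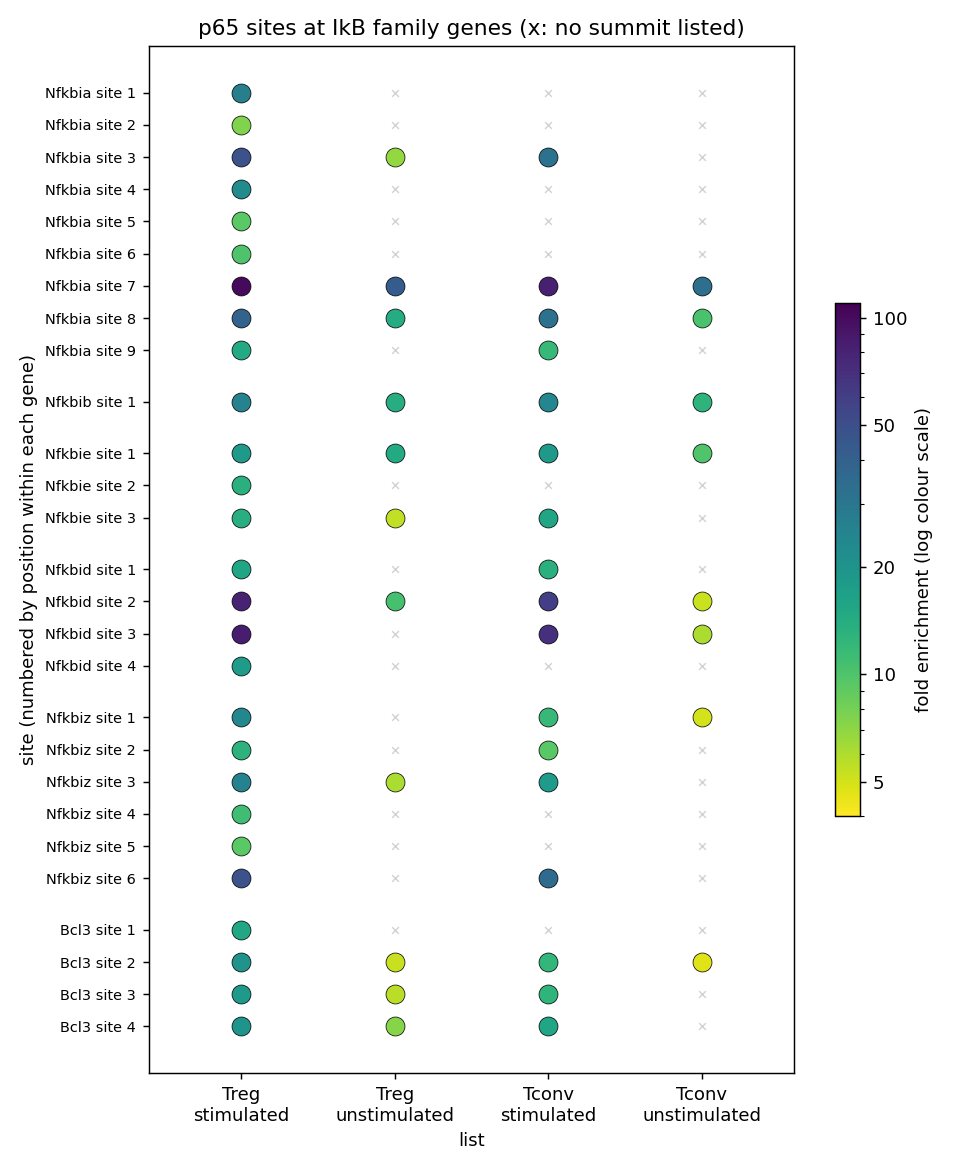
The 27 p65 sites at IkB family genes (rows, grouped by gene and numbered by position) in the 4 lists (columns). Colour gives fold enrichment on a log scale and a grey cross marks a site with no summit listed. All 27 have one in stimulated Treg, the longest list, and 6 have one in every list.

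At Nfkbia (chr12:55489409-55492647, minus strand) the strongest site lay inside the gene, with summits 713 bp after the start in stimulated and 675 bp in unstimulated Treg, and 724 bp in stimulated and 673 bp in unstimulated Tconv. It was the top entry by fold of both stimulated lists. A promoter site had fold enrichments of 39.4, 14.3, 31.9 and 10.3 in the same order, and lay beside the match printed above. Both sites fell in a single region in each list, 4.95 kb long in stimulated and 2.42 kb in unstimulated Treg, and 6.95 kb in stimulated and 2.47 kb in unstimulated Tconv.
About 24.4 kb downstream, a site reached 47.6 in stimulated Treg, 6.80 in unstimulated Treg and 32.1 in stimulated Tconv, and had no entry in unstimulated Tconv. A site 2.73 kb upstream, within the long non-coding RNA gene Gm36634, was in the stimulated lists alone, at 14.8 in Treg and 11.9 in Tconv. Stimulated Treg alone held 5 more, of which those 28.5 kb and 4.89 kb downstream, at 26.5 and 22.4, were above its median. The other 3 had 10.1 inside the gene, 9.35 at 126 bp past its end and 7.46 at 27.2 kb downstream. Nfkbia was thus the member with the most entries, 9 in stimulated Treg, a number that 3.29% of genes with an entry reached.

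Nfkbib (chr7:28758251-28766644, minus strand) had the simplest pattern, with 1 site in each list. Its summits were 60 bp after the start in stimulated and 51 bp in unstimulated Treg, and 96 bp in stimulated and 108 bp in unstimulated Tconv. Sirt2 begins within 1 kb on the opposite strand, so the site cannot be given to one of the 2 genes by position.

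Nfkbie (chr17:45555700-45563169, plus strand) had its strongest site at the promoter, with summits at −129, −72, −120 and −96 bp from the start. A second site inside the gene reached 13.8 in stimulated Treg, 5.48 in unstimulated Treg and 15.4 in stimulated Tconv, without an entry in unstimulated Tconv. A site 1.88 kb after the start, at 13.3, was in stimulated Treg alone. Promoter summits were therefore present in all 4 lists at Nfkbia and Nfkbie, and summits just inside the gene at Nfkbib. This was not limited to the classical genes, since the second start of Nfkbid also had a promoter summit in all 4 lists.

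**Figure D4:**
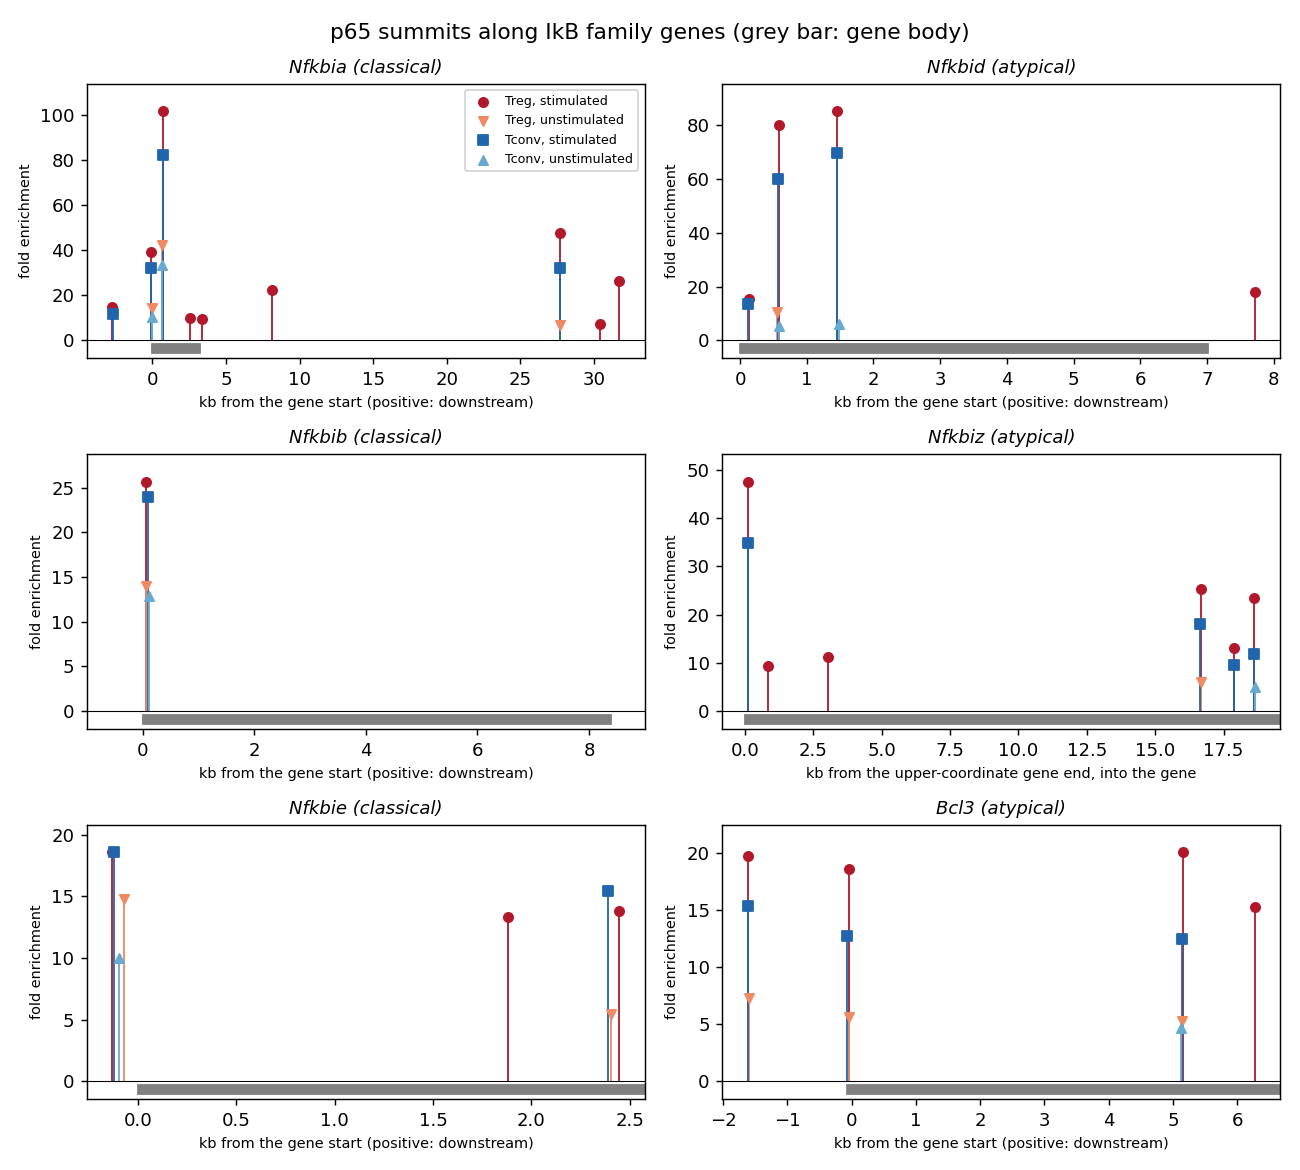
Fold enrichment (y axis) of every p65 summit given to each IkB family gene, by its distance in kb from the gene start (x axis; from the upper-coordinate gene end for Nfkbiz), with the gene body as a grey bar and scales that differ between panels. Classical genes are on the left and atypical genes on the right; the unstimulated symbols (orange and light blue) reach 42.3 at Nfkbia and stay at or below 10.6 at the 3 atypical genes.

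Nfkbid (chr7:30421731-30428749, plus strand) has 3 annotated starts, and the entries clustered at them. Before the second start, summits at −93, −117, −101 and −87 bp had fold enrichments of 80.0 in stimulated and 10.6 in unstimulated Treg, and 60.1 in stimulated and 5.20 in unstimulated Tconv. Before the third start, summits at −87 bp in stimulated Treg, −91 bp in stimulated Tconv and −55 bp in unstimulated Tconv had 85.3, 69.8 and 6.00, and unstimulated Treg had no summit there. The pair of promoters thus ranked 27 and 17 by fold among all entries of stimulated Treg, and by −log10 p the second-start summit ranked 2. After the first start a weaker site had 15.5 in stimulated Treg and 13.5 in stimulated Tconv. A site 701 bp past the gene end, at 17.9, was in stimulated Treg alone.

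Nfkbiz (chr16:55811375-55838954) had all of its entries inside the gene. The strongest, 110 bp in stimulated Treg and 107 bp in stimulated Tconv from the upper-coordinate gene end, had 47.6 and 34.9, and neither unstimulated list had a summit there. A cluster deeper in the gene held 3 sites. The first reached 25.3 in stimulated Treg, 6.08 in unstimulated Treg and 18.1 in stimulated Tconv, and the second reached 23.4 in stimulated Treg, 11.9 in stimulated Tconv and 5.03 in unstimulated Tconv. The third had 13.1 in stimulated Treg and 9.50 in stimulated Tconv. The unstimulated entries of Nfkbiz were thus in the interior cluster, and not at the gene end that carried the strongest stimulated summits. Stimulated Treg alone held 2 more sites, at 11.1 and 9.40. Nfkbiz was also the member with entries just beyond the 50 kb limit, at 52.9 kb in unstimulated Treg (6.67-fold) and at 64.0, 75.6 and 80.2 kb in stimulated Treg (10.0, 19.5 and 8.89-fold), whereas the farthest entry kept for any member was 28.5 kb away.

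Bcl3 (chr7:19808462-19822824, minus strand) had 3 sites of like fold in stimulated Treg. Their −log10 p differed, at 229 for the interior site, 107 at the promoter and 116 beyond the upper gene end. The interior one, within the long non-coding RNA gene Gm16174, reached 20.1 in stimulated and 5.26 in unstimulated Treg, and 12.5 in stimulated and 4.68 in unstimulated Tconv. The promoter site had 18.6 in stimulated Treg, 5.64 in unstimulated Treg and 12.7 in stimulated Tconv. A site about 1.54 kb beyond the upper gene end had 19.8, 7.30 and 15.4 in those lists. Only the interior site had an entry in unstimulated Tconv. A further interior site, at 15.3, was in stimulated Treg alone.

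The study's comparisons were then read by regions, made by merging overlapping entries of a list, and a region had a counterpart when it shared 1 bp or more with a region of the other list. The first comparison asked which stimulated regions were listed without stimulation. In Treg, 7 of the 18 stimulated regions at IkB family genes (38.9%, exact 95% interval 17.3 to 64.3%) had no unstimulated counterpart, where 77.3% of all stimulated Treg regions had none. By class, these were 4 of 9 classical regions (44.4%) and 3 of 9 atypical ones (33.3%). In Tconv, 6 of the 12 stimulated regions (50%, 21.1 to 78.9%) had no unstimulated counterpart, where 67.4% of all had none, with 3 of 6 in each class. Intervals cover counting error over regions only, and regions are not replicates.
The rule for a counterpart and the strength of the entries moved these shares. With an overlap of at least 50% of both regions, 77.8% of the members' stimulated Treg regions had no unstimulated counterpart, where 81.2% of all had none. In Tconv the same rule gave 91.7%, where 74.7% of all had none. At the common −log10 p, the share in Treg was 76.5%, where 87.4% of all had none. Under that cut-off the Treg shares were 62.5% for classical and 88.9% for atypical genes, where each class had 8 or 9 regions. The Tconv shares were 50% and 100% of 6 regions each, where 81.9% of all had none. Stimulated regions at the members were also wide, with medians of 1229 bp in Treg and 2102.5 bp in Tconv, where the medians of those lists were 966 bp and 1217.5 bp. Their unstimulated regions had medians of 659.5 bp in Treg, where that of the list was 872 bp, and 929.5 bp in Tconv, where it was 859 bp. The part of width in the counts was not tested.

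In the opposite direction, 0 of the 10 unstimulated Treg regions at the members lacked a stimulated counterpart (upper exact bound 30.8%), where 21.6% of all lacked one. Of the 6 unstimulated Tconv regions 0 lacked one (upper bound 45.9%), where 36.3% of all did. Under the 1 bp rule, every member region listed in resting cells thus had a counterpart after stimulation of the same cell type. Most of them covered less than 50% of the stimulated region, as at Nfkbia in Treg, with 2.42 against 4.95 kb. Most therefore lacked a counterpart under the rule of 50% overlap of both regions. That rule left 35.2% of all unstimulated Treg and 51.0% of all unstimulated Tconv regions without one.

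The second comparison set Treg against Tconv. Of the 18 stimulated Treg regions at the members, 5 had no stimulated Tconv counterpart (27.8%, 9.69 to 53.5%), where 49.3% of all had none. Conversely, 0 of the 12 stimulated Tconv regions had no stimulated Treg counterpart (upper bound 26.5%), where 4.15% of all had none. The Treg list is the longer of the pair. With equal list lengths, 16.7% of 12 Treg regions and 10.0% of 10 Tconv regions had no counterpart, where 30.2% and 31.3% of all had none. The 5 Treg regions were 3 downstream of Nfkbia, at 26.5, 22.4 and 7.46, 1 past the end of Nfkbid, at 17.9, and 1 inside Nfkbiz, at 11.1. At Nfkbib, Nfkbie and Bcl3 every stimulated Treg region had a stimulated Tconv counterpart, although Nfkbie and Bcl3 each had a summit that stimulated Treg alone held within a shared region.

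In unstimulated cells, 5 of the 10 Treg regions at the members had no unstimulated Tconv counterpart (50%, 18.7 to 81.3%), where 20.6% of all had none. They were the regions at the downstream site of Nfkbia, inside Nfkbie, inside Nfkbiz, and at the promoter and upstream sites of Bcl3. All were weak, at 5.48 to 7.30-fold in a list with a median of 8.13, and 94.3% of all such regions were below that median too. Each of the 5 had a stimulated Tconv counterpart, where 58.9% of all such regions had one. At the common −log10 p, 4 unstimulated Treg regions remained and 25.0% of them had no unstimulated Tconv counterpart, where 19.1% of all had none. Of the 6 unstimulated Tconv regions, 1 had no unstimulated Treg counterpart (16.7%, 0.421 to 64.1%), where 13.9% of all had none. It was the Nfkbiz region at 5.03-fold, in the same interior cluster as the unstimulated Treg region of Nfkbiz. Both lay within a single stimulated Tconv region of 3.06 kb.

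A list of 35 other genes of the pathway put the family in context. An entry was given to 26 of them in stimulated and 16 in unstimulated Treg, and 22 in stimulated and 18 in unstimulated Tconv. Of all protein-coding genes, 25.8%, 13.8%, 16.9% and 12.9% had one in that order of lists, and the groups below are small against these shares. The 5 NF-kB subunit genes had one in every list, and Nfkb1, which encodes p105 and p50, had summits up to 64.2 in stimulated and 18.2 in unstimulated Treg, and 52.0 in stimulated and 14.8 in unstimulated Tconv. In each list, 5 of 6 feedback genes had an entry. Tnfaip3, which encodes the ubiquitin-editing enzyme A20, reached 86.1, 43.3, 70.2 and 35.1 in the same order, close to the values of Nfkbia in the unstimulated lists.
IkB kinases, related kinases and kappaB-Ras genes had entries at 3 of 7 genes in stimulated and 1 in unstimulated Treg. In Tconv these were 2 with stimulation and 1 without. In the unstimulated lists, 1 of 7 is near the share of all protein-coding genes. Ikbkb encodes IKKβ, a kinase that marks IkB for destruction. It had 20.5 in stimulated Treg and 11.8 in stimulated Tconv and no entry in the unstimulated lists. These summits lay 20571 and 20579 bp outside the gene and were given to it as the nearest one. Parts of the ubiquitin ligase that recognises phosphorylated IkB had entries at 3, 2, 3 and 3 of 5 genes. Fbxw11, a substrate receptor of that ligase, had 25.4 in stimulated Treg, 11.8 in stimulated Tconv and 7.75 in unstimulated Tconv.
In the group listed here as the antigen receptor branch, 8 of 8 genes had an entry in stimulated and 3 in unstimulated Treg. In Tconv, 6 had one with stimulation and 4 without. Prkcq, which encodes the kinase PKCθ, had 48.5 in stimulated Treg, 7.12 in unstimulated Treg and 35.1 in stimulated Tconv, at 12013, 11055 and 12015 bp outside the gene. Of 4 other genes with ankyrin repeats, 2 had an entry in stimulated and 0 in unstimulated Treg, and 1 in stimulated and 0 in unstimulated Tconv, led by Nfkbil1 at 21.9 in stimulated Treg and 18.2 in stimulated Tconv.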

How the data were processed

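The data are p65 ChIP-seq peak lists, 1 per group, from 8 immunoprecipitated and 2 input libraries. The submitters' processing notes name MACS2 2.1.1.20160309, BWA 0.7.15-r1140, Trim Galore 0.4.1 and the build mm10. The use of the input is stated nowhere in the sources used here. Per the labels, the lists come from pooled replicates, with blacklisted regions removed and a conservative IDR test of reproducibility applied. The authors deposited for each summit a fold enrichment (a ratio over local background), a −log10 p and a score, which equals 10 times the −log10 p. Their −log10 q was not used here. Deeper libraries could give longer lists and higher values, and depth is unknown.

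Summits were assigned to genes of RefSeq's table for assembly GRCm38.p6. Overlapping entries were merged into regions, and shares carry 95% Clopper-Pearson intervals. Python 3.11.15, pandas 2.3.3, numpy 2.4.6, SciPy 1.17.1 and matplotlib 3.10.9 were used. Assignment, overlap and motif searches were tested on simulated data. The genes, pathway list and motif were chosen with earlier results of these data known. The sites named are the strongest of each member in each list and every site of 1 list above that list's median, to which the members' other sites were added. Of the other pathway genes, the strongest of each role in stimulated Treg is named, and neighbouring genes only within 1 kb of a summit. Skp1a of the pathway list is Skp1 in the table. No test was run.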

Additional observations from a re-analysis of the deposited data

How the results depend on the processing

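Of 158 alternative values for 23 results, 136 stayed within the range set for each result, namely 1.5 times a count or the exact interval of a share. With so few regions the intervals are wide, so this total does not show that the shares are stable. The classical share without an unstimulated counterpart in stimulated Treg, for example, went from 44.4% to 77.8% with the 50% overlap. It still lay within its interval of 13.7 to 78.8%. No paired analysis was possible because each group has 1 pooled list and the lists carry no replicate numbers, and for the same reason no replicate could be left out.

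Counts of entries moved with list strength and assignment. Stimulated Treg had 14 entries at the members with equal list lengths and 44 when every gene within 50 kb got the entry. Unstimulated Treg had 5 at the common −log10 p, 5 when each list was cut to its upper 50%, and 17 with every gene within 50 kb. Stimulated Tconv had 28 with every gene within 50 kb, and unstimulated Tconv had 4 at the common −log10 p and 4 in the upper 50%. Ranking by −log10 p gave 2 of 9 pairs with the classical gene higher in stimulated Treg. The other pathway genes with an entry in stimulated Treg numbered 17 with equal list lengths.

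Shares without an unstimulated counterpart moved most. In stimulated Treg the share was 77.8% with a 50% overlap of both regions, 76.5% at the common −log10 p and 75.0% in the upper 50%, and for the atypical genes 77.8%, 88.9% and 87.5%. Of all stimulated Treg regions, 81.2%, 87.4% and 84.9% had no unstimulated counterpart under those settings, so the atypical shares were near those of all regions. In stimulated Tconv it was 91.7% with the 50% overlap. For the atypical genes in stimulated Tconv it was 100% of 6, 6 and 5 regions under the 3 settings, where 74.7%, 81.9% and 76.2% of all had none. For unstimulated Tconv regions without an unstimulated Treg counterpart it was 0% of 3 regions at the common −log10 p and 0% of 3 in the upper 50%, where 7.18% and 10.0% of all had none. The causes were not tested. The classical gene was higher in 9 of 9 gene pairs in both unstimulated lists under the 3 other assignments and the ranking by −log10 p. Stricter lists only remove weak entries and cannot test that order.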
